A study of Mus musculus with 8 samples.

Results

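The Myc, Max and Mxd network is represented here by 9 of the 23284 genes in the deposited table, taken by symbol: the Myc family genes Myc and Mycn, their shared partner Max, the antagonists Mxi1, Mxd3, Mxd4 and Mnt, and the related genes Mga and Mlx. All 9 had a mean of 1 or more FPKM (sequenced fragments scaled by transcript length and by library depth) over the conditions, as did 11452 genes in all, and these 11452 genes were tested. The cells were P19, a mouse embryonal carcinoma line, in which Upf3a was knocked down by siRNA or which received a control siRNA; Upf3a encodes a factor of nonsense-mediated mRNA decay. Every culture, controls included, received actinomycin D, an inhibitor of transcription, a day after transfection, and RNA was taken at 0, 15, 105 and 225 min. The labels list 2 cultures for each of the 8 conditions and the table holds a single value for each gene in each, so n stands for time points and the p-values cover the spread between them only.

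MYC and MYCN are transcription factors that bind E-boxes in DNA as dimers with MAX, and they drive genes of growth, ribosome production and the cell cycle. The MXD proteins, MXI1 among them, and MNT compete for MAX and recruit corepressors to the same sites, while MGA pairs with MAX within a polycomb complex and MLX pairs with MNT, MXD1 or MXD4 and with glucose-sensing partners. Myc mRNA is known as one of the short-lived mRNAs of the cell, and Myc activity is high in pluripotent cells.

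FPKM totals ran from 537350 to 923333 per condition, and for a typical tested gene the upper limit given by the authors exceeded the FPKM by 32.0% to 32.9% (medians per condition). The totals differed with time: 562848, 537350, 686647 and 880304 at 0, 15, 105 and 225 min in the control arm. In the knockdown arm they were 537437, 548042, 662435 and 923333. The median tested gene stood at 102% and 105% of its 0 min FPKM at 225 min in the control and knockdown arms. The main fits used FPKM as deposited, with no scaling to the totals. The read depth behind the values is unknown. Upf3a mRNA in the knockdown arm was 38.8%, 32.4%, 34.0% and 27.7% of the control arm at 0, 15, 105 and 225 min, with the authors' limits apart at each (exact two-sided sign-flip p = 0.13, the smallest that 4 pairs allow). All 10 embryonal carcinoma or early epiblast markers were detected, with Pou5f1, a pluripotency factor, at 1391 to 3153 FPKM. Their summed FPKM ran from 2099 to 3506 in the control arm and from 2616 to 4397 in the knockdown arm, and 7 of the 10 were called higher in the knockdown arm, where 26.1% of all tested genes were called higher and 22.3% lower. Markers of fibroblasts summed to 9.14 to 16.1 FPKM, of endoderm to 0.899 to 4.58 and of immune cells to 3.56 to 8.23, and Sox17, Afp and Cd3e were at or near 0. Neural markers summed to 48.2 to 78.4 FPKM, most of it Tubb3, a neuronal tubulin also found outside neurons. Of the 3 neural markers tested 2 were called lower in the knockdown arm, Elavl3 at a log2 difference of -0.80 and Tubb3 at -0.19, as was 1 of the 3 fibroblast markers tested, Col1a2 at -0.54, and 1 of the 2 immune markers tested, Lyz2, was called higher at 0.19. The part of these markers in the differences below was not tested.

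ATTTA is the core of the AU-rich elements through which many short-lived mRNAs are bound and degraded. On GENCODE models of GRCm38 (the mm10 build), the annotated Myc 3' UTR of 442 bases held 2 such motifs, 4.53 per kb, against a median of 1.22 per kb over 10103 tested genes with a coding transcript. Mycn held 1 in 913 bases and Max 1 in 1299 bases. The motifs of these 3 mRNAs are shown with flanking bases because the results turn on how fast they were lost; capitals mark ATTTA, read on the mRNA strand only. The sites lie at chr15:61990137-61990161 and chr15:61990274-61990298 (both + strand), chr12:12936151-12936175 (− strand) and chr12:76937766-76937790 (− strand).
Myc, first site: acagatttgtATTTAattgtttttt
Myc, second site: aattttttttATTTAaagacatttt
Mycn: aaatgtatatATTTAgtgctgcacc
Max: atgttttgatATTTAtttcctgcta
The motif is common: 65.4% of the tested coding genes held at least 1. Mxi1 and Mga held 5 each, Mlx 2, Mnt 1, and Mxd3 and Mxd4 0. Whether the count goes with the loss described below was not tested. Mycn with 1 and Myc with 2 had the steepest slopes, and Mga with 5 followed at -0.44 log2 units per hour over both arms. Mnt and Max with 1 each were at -0.32 and -0.17. Mxi1 with 5 was at 0.0052 and showed no loss that passed the test. Mlx with 2 was at 0.12, and Mxd3 and Mxd4 with 0 were at 0.14 and 0.15. Which of Mycn and Myc was steeper depended on the fit. Mycn was steeper in the main fit, and Myc was with a pseudocount of 0.1 (-0.89 and -0.83 for Myc and Mycn) and without 225 min (-1.33 and -0.90).

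At 0 min in the control arm Mlx, Mycn and Max were the most abundant of the 9, at 34.6, 30.4 and 28.3 FPKM, and their limits overlapped. Mga followed at 13.7, Myc at 8.82, Mnt at 7.79, Mxd4 at 5.99, Mxi1 at 5.12 and Mxd3 at 4.60 FPKM. The limits of Max (19.8 to 36.9) and Mga (10.1 to 17.2) did not overlap, and below Mga neighbours in this order were not separated by their limits. Mycl1, the third Myc family gene, stood at 29.5 FPKM, so Mycn and Mycl1 mRNA each exceeded Myc mRNA in these cells.

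**Figure D1:**
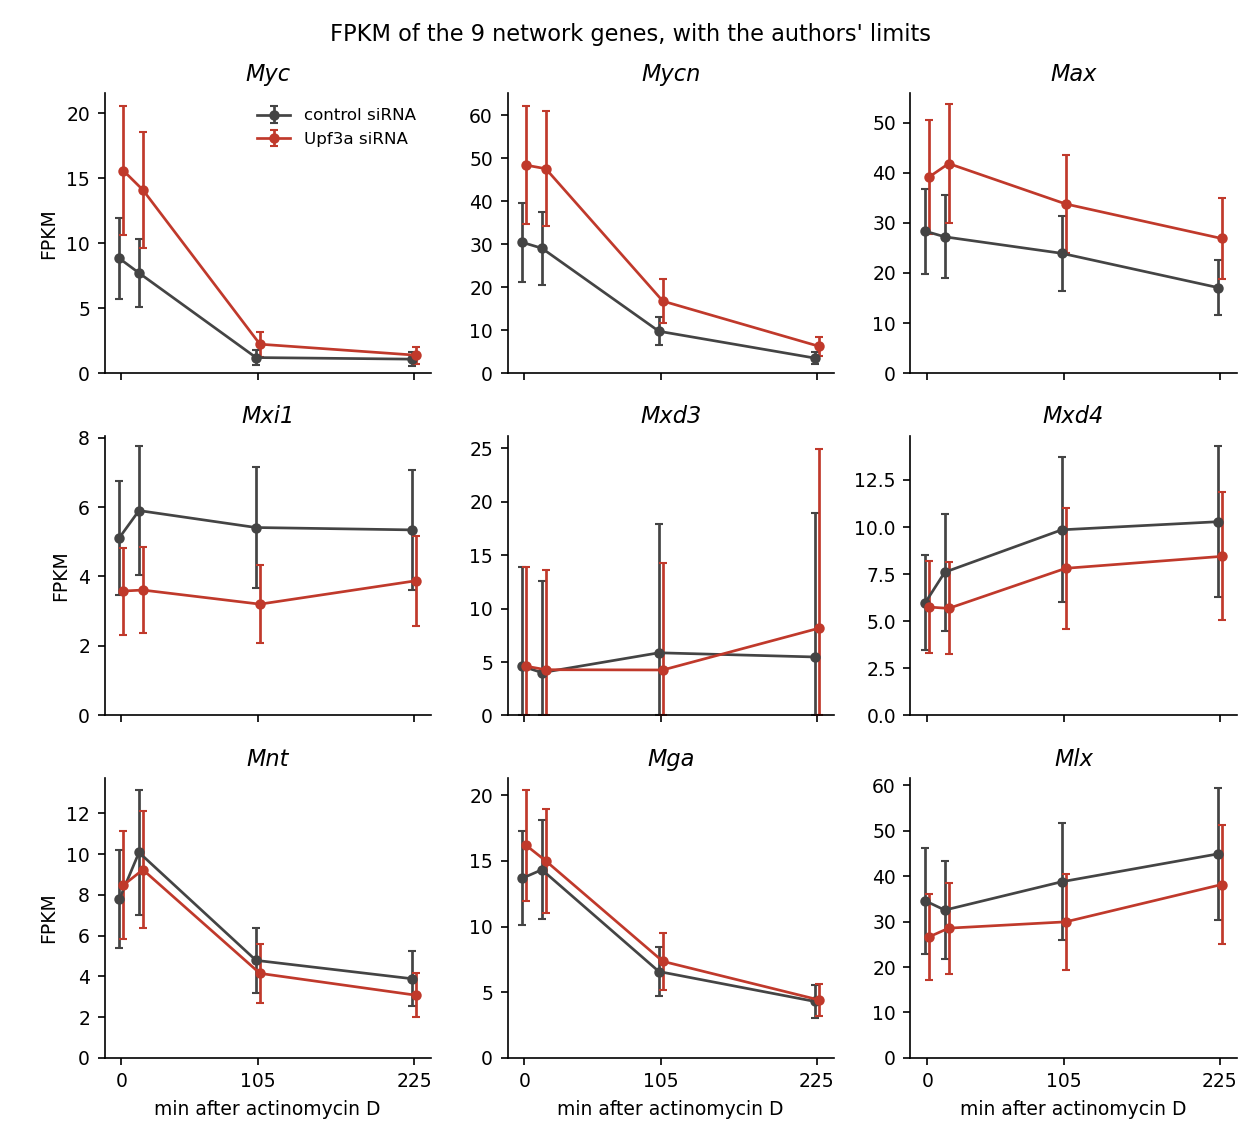
FPKM (y axis, linear, from 0) of each of the 9 genes against min after actinomycin D, in the control siRNA arm (grey) and the Upf3a siRNA arm (red, set slightly to the right); bars are the authors' lower and upper limits, whose level is not stated. Myc and Mycn dropped steeply in both arms, Max declined slowly, and Mxd4 and Mlx ended above their first value; Mxd3 has bars that reach 0 throughout.

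Myc and Mycn mRNA were both higher after Upf3a knockdown, and both were among the mRNAs lost fastest after the transcription block in either arm. Myc (15:61985391-61990374, + strand) measured 8.82, 7.70, 1.20 and 1.08 FPKM in the control arm at 0, 15, 105 and 225 min, and 15.6, 14.1, 2.23 and 1.38 FPKM in the knockdown arm. The knockdown value was the higher at all 4 times, by 1.77-, 1.83-, 1.86- and 1.28-fold, though the authors' limits of the arms overlapped at each. Mycn (12:12936093-12941914, − strand) measured 30.4, 29.1, 9.75 and 3.50 FPKM in the control arm and 48.4, 47.6, 16.8 and 6.26 FPKM in the knockdown arm. Its fold was 1.59, 1.64, 1.72 and 1.79 at the 4 times, so the excess of the knockdown arm was of like size from the first sample to the last. The spread of the log2 ratio over times was smaller for Mycn (0.75 ± 0.075, SD, n = 4 time points) than for Myc (0.74 ± 0.25).

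The expression difference was fitted over all tested genes with limma on log2(FPKM + 1), a scale that understates the change of low genes, with time point as a factor. It was 0.69 ± 0.040 (SE; adjusted p = 5.6e-05) for Mycn and 0.58 ± 0.096 (adjusted p = 0.0025) for Myc, which ranked 240 and 390 from the highest of 11452 genes. Among all tested genes 26.1% were called higher and 22.3% lower in this comparison, so a call by itself sets no gene apart. With hours as a number in place of the time factor the Myc difference no longer passed (adjusted p = 0.22), and with a pseudocount of 5 it was 0.36 (adjusted p = 0.016). The Mycn difference passed under all 13 alternatives, at 0.55 to 0.77.

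**Figure D2:**
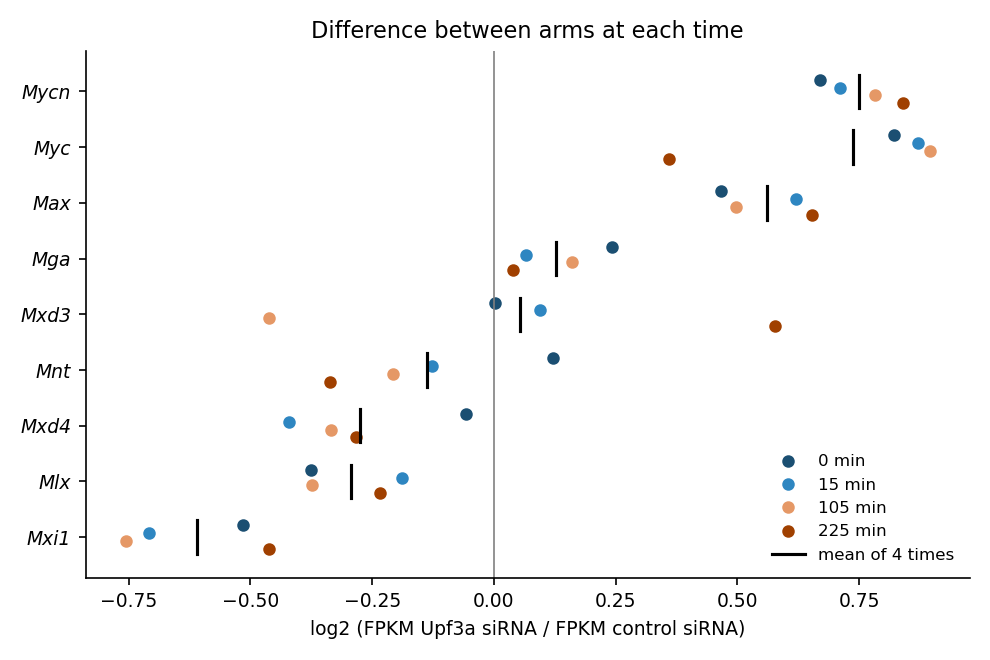
Log2 ratio of FPKM in the Upf3a siRNA arm over the control siRNA arm (x axis) for each of the 9 genes (y axis, ordered by mean); points are the 4 times and the black bar is their mean. All 4 points lie above 0 for Mycn, Myc, Max and Mga and below 0 for Mxi1, Mlx and Mxd4; Mnt and Mxd3 have points on both sides.

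After the block both mRNAs were lost in both arms. From 15 to 105 min Myc kept 15.5% of its FPKM in the control arm and 15.8% in the knockdown arm, a relative half-life of 33.5 and 33.8 min. Relative half-life is the time to halve against the bulk of mRNA, since FPKM has no outside standard. The share of tested genes with as little left over this interval was 0.393% and 0.341%. Mycn kept 33.5% and 35.2%, a relative half-life of 57.1 and 59.8 min, so in both arms less of Myc than of Mycn was left after this interval, a difference that was not tested. The order was the other way from 105 to 225 min, when Mycn again kept 35.9% and 37.3% while Myc kept 89.8% in the control arm and 62.0% in the knockdown arm. Myc was then near 1 FPKM and its limits at 105 and 225 min overlapped in both arms. Over the whole course the limits at 0 and 225 min did not overlap for either gene in either arm: Myc ended at 12.2% and 8.86% of its first value and Mycn at 11.5% and 12.9%.

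The slope over both arms was -0.77 ± 0.031 log2 units per hour (SE; adjusted p = 6.3e-07) for Mycn and -0.71 ± 0.11 (adjusted p = 4.6e-04) for Myc, ranks 24 and 44 from the fastest loss among 11452 genes. The Myc slope depended on the last time and on the pseudocount: it was -1.33 without 225 min and -0.40 with a pseudocount of 5. The slope of Myc was -0.63 ± 0.17 in the control arm and -0.79 ± 0.17 in the knockdown arm, and that of Mycn was -0.77 ± 0.047 in both. The difference between arms did not pass the test for either gene. It was -0.16 for Myc (95% interval -0.22 to -0.089, unadjusted p = 0.0012, adjusted p = 0.55) and 0.0071 for Mycn (-0.060 to 0.074, adjusted p = 0.96). The Myc value was negative, that is toward faster loss in the knockdown arm, under all 13 alternatives, with adjusted p from 0.098 to above 0.99. All of these kept a pseudocount, which shrinks the ratio of low values. On plain FPKM the knockdown arm stood 1.77-fold above the control arm at 0 min and 1.86-fold at 105 min. It was 1.28-fold at 225 min, where Myc was near 1 FPKM. Plain FPKM thus showed no faster loss in the knockdown arm before that last time.

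The mRNA of Max, the partner for which MYC, MYCN, the MXD proteins and MNT compete, was higher in the knockdown arm and declined slowly. Max (12:76937269-76962201, − strand) measured 28.3, 27.2, 23.9 and 17.1 FPKM in the control arm and 39.2, 41.8, 33.8 and 26.9 FPKM in the knockdown arm. Each knockdown value lay above the control value of its time, by 1.38-, 1.54-, 1.41- and 1.57-fold, and the lowest knockdown value, at 225 min, was below the 2 earliest control values. The fitted difference was 0.54 ± 0.047 (SE; adjusted p = 2.0e-04), rank 455 from the highest, and it passed under all 13 alternatives, at 0.47 to 0.63. The slope was -0.17 ± 0.016 log2 units per hour (adjusted p = 2.5e-05), with 60.3% left at 225 min in the control arm and 68.6% in the knockdown arm, and limits at 0 and 225 min that overlapped. Its difference between arms was 0.025 (95% interval -0.051 to 0.10, adjusted p = 0.86). GENCODE annotates 1 of the 7 Max transcripts as a target of nonsense-mediated decay, and none of the transcripts of the other 8 genes; 29.0% of tested genes have such a transcript. The table gives 1 value per gene, so that transcript was not measured apart.

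Of the antagonists, Mxi1 and Mxd4 were lower in the knockdown arm, and Mnt and Mxd3 did not pass the test. Mxi1 (19:53310518-53375810, + strand) measured 5.12, 5.90, 5.41 and 5.34 FPKM in the control arm and 3.58, 3.61, 3.20 and 3.88 FPKM in the knockdown arm. Every control value exceeded every knockdown value, though the authors' limits of the arms overlapped at each time. The knockdown arm held 69.9%, 61.2%, 59.2% and 72.6% of the control arm, and the fitted difference was -0.50 ± 0.054 (SE; adjusted p = 4.1e-04), rank 257 from the lowest; it was -0.29 with a pseudocount of 5 (adjusted p = 9.3e-04). Mxi1 was level against the bulk, with a slope of 0.0052 ± 0.020 (adjusted p = 0.82) and 104% and 108% of the first value at 225 min. Quantile normalization gave a slope of 0.12 that passed (adjusted p = 4.7e-04). Its exons overlap those of Gm10197 on the other strand, and whether the libraries kept strand is not stated.

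Mxd4 (5:34173883-34187720, − strand) measured 5.99, 7.61, 9.86 and 10.3 FPKM in the control arm and 5.75, 5.68, 7.81 and 8.45 FPKM in the knockdown arm. The arms were close at 0 min and apart by about the same amount at the 3 later times, with folds of 0.961, 0.747, 0.793 and 0.821. The difference of -0.24 ± 0.058 (SE; adjusted p = 0.012) did not pass with hours as a number (adjusted p = 0.057), without 105 min (-0.22, adjusted p = 0.052), without 15 min (-0.20, adjusted p = 0.053), or with scaling to ribosomal protein genes (-0.16, adjusted p = 0.14). Its slope of 0.15 ± 0.029 (adjusted p = 0.0014) was upward relative to the bulk, and 0.27 without 225 min. Exons of Gm42846 overlap it on the other strand.

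Mnt, which encodes a broadly expressed MAX-binding repressor, declined in both arms with no difference between them that passed the test. Mnt (11:74830920-74845725, + strand) measured 7.79, 10.1, 4.78 and 3.88 FPKM in the control arm and 8.48, 9.23, 4.14 and 3.07 FPKM in the knockdown arm. The knockdown arm was higher at 0 min and lower at the other 3 times, and the difference of -0.11 ± 0.063 did not pass (adjusted p = 0.19), though it did without 0 min (-0.18, adjusted p = 0.039). The slope was -0.32 ± 0.047 (adjusted p = 2.6e-04), and -0.50 without 225 min. From 15 to 105 min 47.5% was left in the control arm and 44.9% in the knockdown arm, and the limits at those times did not overlap in either arm. The slope difference was -0.076 (95% interval -0.16 to 0.0050, adjusted p = 0.75).

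Mxd3 (13:55325168-55329823, − strand) measured 4.60, 4.01, 5.87 and 5.47 FPKM in the control arm and 4.61, 4.28, 4.26 and 8.16 FPKM in the knockdown arm, with lower limits of 0 throughout and upper limits of 12.6 to 24.9. It shares its locus in the table with Prelid1, whose exons overlap it on the other strand, so its reads may be split between them. The difference was 0.049 ± 0.12 (adjusted p = 0.76), and -0.10 without 225 min. Its slope of 0.14 ± 0.042 (adjusted p = 0.014) did not pass without 225 min (0.090, adjusted p = 0.24), without 15 min (0.12, adjusted p = 0.077) or in the control arm alone (0.086, adjusted p = 0.21). No order of the arms can be read from these values.

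Of the more distant members, Mlx was lower in the knockdown arm, and Mga was lost after the block with no difference between arms that passed. Mga (2:119897228-119969581, + strand) measured 13.7, 14.3, 6.57 and 4.29 FPKM in the control arm and 16.2, 15.0, 7.35 and 4.41 FPKM in the knockdown arm. It was the higher in the knockdown arm at all 4 times by 1.03- to 1.18-fold, a difference of 0.12 ± 0.048 that did not pass (adjusted p = 0.082). Its slope of -0.44 ± 0.034 (adjusted p = 7.6e-06) ranked 590 from the fastest, and its limits at 0 and 225 min did not overlap in either arm, with 31.4% and 27.3% left. Mlx (11:101087277-101092207, + strand) measured 34.6, 32.5, 38.8 and 44.9 FPKM in the control arm and 26.6, 28.6, 29.9 and 38.2 FPKM in the knockdown arm. Each knockdown value lay below the control value of its time, at 77.1%, 87.8%, 77.2% and 85.0% of it. The difference was -0.28 ± 0.049 (SE; adjusted p = 0.0029) and passed under all 13 alternatives, at -0.35 to -0.20. Its slope was 0.12 ± 0.016 (adjusted p = 1.6e-04). Mlx shares its locus in the table with Psmc3ip, which overlaps it on the other strand.

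Counted together, 3 of the 9 genes were called higher in the knockdown arm (Mycn, Myc, Max), 3 lower (Mxi1, Mlx, Mxd4) and 3 in neither direction, against 26.1% and 22.3% of all tested genes. Their median difference was 0.049 beside 0.0046 over all tested genes, so the group as a whole did not move one way. The difference had the same sign at all 4 times for 7 of the 9, as it did for 60.4% of tested genes. By the authors' limits none of the 9 differed between arms at any time, where 2.9% of tested genes did at 1 or more times. Scaling to 74 ribosomal protein genes raised the share of higher calls among all called genes from 53.9% to 77.5%.

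**Figure D3:**
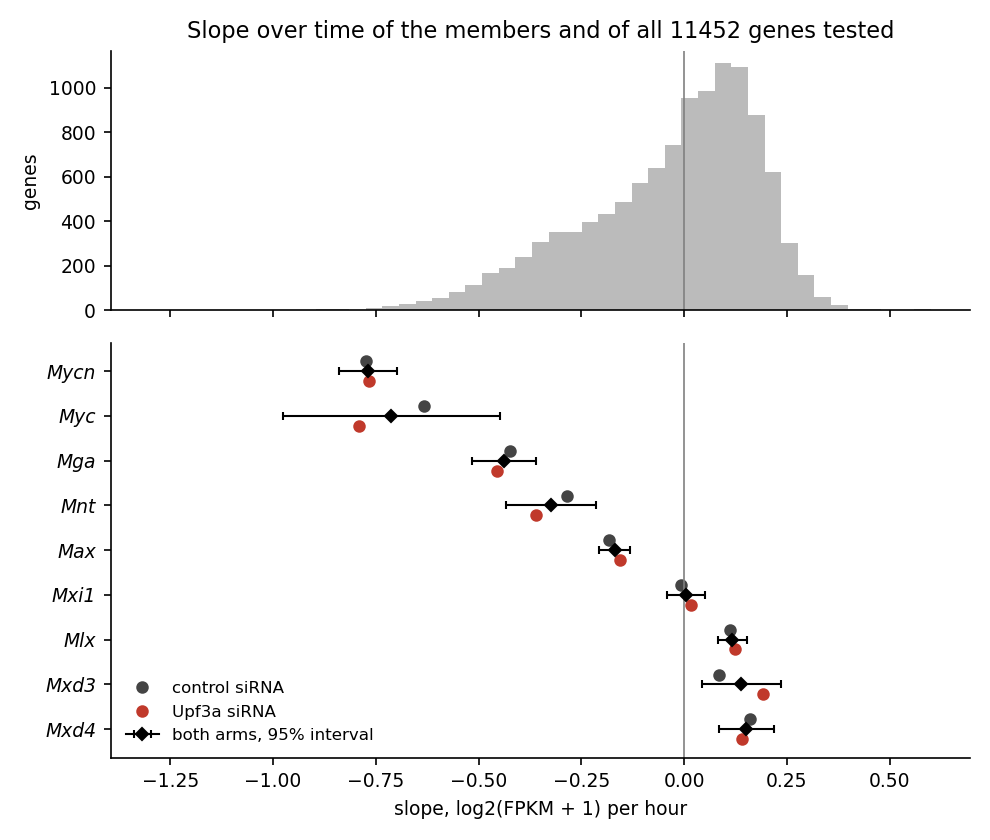
Slope in log2(FPKM + 1) per hour (x axis); above, the number of tested genes per bin of slope over both arms, and below, each of the 9 genes with the slope over both arms and its 95% interval (black), and the slopes of the control siRNA arm (grey) and the Upf3a siRNA arm (red). Mycn at -0.77 and Myc at -0.71 lie in the far left tail, where the bins hold few genes, and the points of the 2 arms of Mycn lie at nearly the same slope.

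For the slope over both arms, 5 of the 9 were called lower (Mycn, Myc, Mga, Mnt, Max) and 3 higher (Mxd4, Mxd3, Mlx), beside 38.6% and 42.7% of tested genes. In order from fastest loss, the 95% intervals of Mycn (-0.84 to -0.70) and Myc (-0.98 to -0.45) overlapped, as did those of Myc and Mga (-0.52 to -0.36) and of Mga and Mnt (-0.43 to -0.21). Those of Mnt and Max (-0.21 to -0.13) nearly met. Max lay apart from Mxi1 (-0.041 to 0.052) and Mxi1 from Mlx (0.081 to 0.15), while Mlx, Mxd3 and Mxd4 overlapped. The wider interval of Mxd3 (0.043 to 0.24) also overlapped that of Mxi1. The authors' limits at 0 and 225 min were apart and lower at 225 min for 4 of the 9 in each arm (Myc, Mycn, Mnt, Mga), beside 18% of tested genes in the control arm and 19.8% in the knockdown arm, and apart and higher for none. An upward slope is relative to the bulk: scaling to ribosomal protein genes moved the median slope of all genes by -0.25, and all 9 genes were then called lower. Slopes were not set against the FPKM totals, which were highest at 225 min in both arms. None of the 9 passed the test of the slope difference between arms, where 0.00873% of tested genes (1 gene) did; at an unadjusted p under 0.05 there were 1 of the 9 (Myc) and 762 of all tested genes.

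The ratio of Myc plus Mycn mRNA to that of 4 antagonists was higher in the knockdown arm at each of the 4 times. Myc plus Mycn came to 39.3, 36.8, 10.9 and 4.57 FPKM in the control arm and 64.0, 61.7, 18.99 and 7.64 FPKM in the knockdown arm. Divided by the sum of Mxi1, Mxd3, Mxd4 and Mnt, this gave 1.67, 1.33, 0.422 and 0.183 in the control arm and 2.85, 2.70, 0.978 and 0.324 in the knockdown arm. Within each arm this ratio dropped below 1 between 15 and 105 min. That timing held only without Mycl1. With Mycl1 added the Myc family sum was 68.8, 69.4, 35.7 and 18.2 FPKM in the control arm. In the knockdown arm it was 93.9, 91.5, 39.7 and 19.7 FPKM. At 105 min it still exceeded the antagonist sum, which was 25.9 FPKM in the control arm and 19.4 in the knockdown arm. Divided by Max, Myc plus Mycn gave 1.39, 1.35, 0.458 and 0.268 in the control arm and 1.63, 1.47, 0.562 and 0.284 in the knockdown arm, a smaller gap since Max was higher there too. The ratio of Mycn to Myc peaked at 105 min in both arms, at 8.14 and 7.53, from 3.45 and 3.11 at 0 min. These are ratios of mRNA levels per length, given with no test, and Mxd3 enters with its wide limits. Mycl1 and Mxd1 are not part of the ratios.

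**Figure D4:**
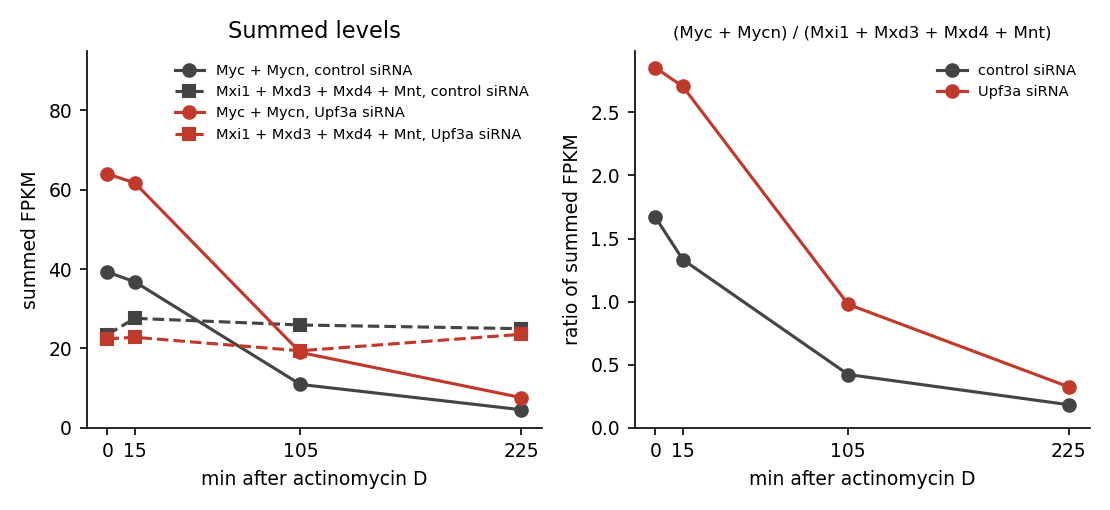
Left, summed FPKM of Myc plus Mycn (circles, solid) and of Mxi1, Mxd3, Mxd4 and Mnt (squares, dashed) against min after actinomycin D in the control siRNA arm (grey) and the Upf3a siRNA arm (red). Right, the ratio of the first sum to the second; it dropped from 1.67 to 0.183 in the control arm and from 2.85 to 0.324 in the knockdown arm.

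The E-box CACGTG is the preferred site of MYC and MAX dimers. It is shown for the members that hold it, because those of them called between arms went in both directions. In RefSeq promoter windows of 300 bases (GRCm38.p6, around the start and mostly before it), 4 of the 8 members with an entry held CACGTG, which reads the same on both strands: Max, Mxd4, Mnt and Mlx. It was found in 12.3% of 8223 tested genes with a window and in 7.15% of all 32851 windows. The stretches below lie at chr12:76962226-76962271 (− strand), chr5:34187904-34187949 (− strand), chr11:74830781-74830826 (+ strand) and chr11:101087230-101087275 (+ strand), and capitals mark the E-box, which begins 3, 219, 123 and 40 bases before the start.
Max: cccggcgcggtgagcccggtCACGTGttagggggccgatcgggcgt
Mxd4: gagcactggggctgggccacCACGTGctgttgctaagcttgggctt
Mnt: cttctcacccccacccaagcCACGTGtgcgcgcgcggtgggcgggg
Mlx: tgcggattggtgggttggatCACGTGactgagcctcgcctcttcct
In the knockdown arm Max was higher, Mxd4 and Mlx were lower and Mnt did not pass, so the 4 did not share a direction. A match is a description of the letters and says nothing about binding in these cells.

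Of 8 other tested genes of the network, none was called higher and 2 were called lower, Mxd1, an antagonist of Myc, at -0.26 ± 0.046 (SE; adjusted p = 0.0034) and Usf2, an E-box factor outside the family, at -0.14 ± 0.041 (adjusted p = 0.029), with a list median of -0.091. That is 25.0% of the list lower beside 22.3% of all tested genes, a share near the background. Ribosomal protein scaling left 0 called lower, and lower calls among all tested genes also dropped there, to 975 from 2557. Without 15 or 105 min 1 was called lower, where 1926 and 1965 of all tested genes were. Without 225 min 1 was called higher and 1 lower, where 2700 and 2232 of all tested genes were. Mxd1 measured 3.10, 2.81, 1.59 and 1.19 FPKM in the control arm and 2.62, 2.19, 1.20 and 0.702 FPKM in the knockdown arm, lower at every time. Mycl1 measured 29.5, 32.6, 24.7 and 13.6 FPKM in the control arm and 29.9, 29.8, 20.7 and 12.1 FPKM in the knockdown arm. Unlike Myc and Mycn it was not called, at -0.13 ± 0.052 (adjusted p = 0.082), though the difference between these genes was not tested.

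Among genes that MYC is known to activate, in ribosome production, nucleotide synthesis and the cell cycle, 24 of 54 (44.4%) were called higher and 6 (11.1%) lower in the knockdown arm, beside 26.1% and 22.3% of all tested genes. The list's median difference was 0.12 beside 0.0046 over all tested genes, and it was above the median of all genes under each of the 13 alternatives, with 18 to 31 genes called higher and 1 to 6 lower. Of all genes tested in those fits, 2261 to 3351 were called higher and 975 to 3170 lower. The number tested was 8099 with a mean FPKM of 5 or more, 19710 with no filter and 11452 otherwise. At a mean FPKM of 5 or more, 26 of 53 targets were called higher and 6 lower, with a median of 0.12. Of the 8099 genes there, 2295 were called higher and 1656 lower, with a median of 0.018. Polr1b, a core subunit of RNA polymerase I, was higher by 1.09 ± 0.054 (SE; adjusted p = 4.7e-05), with 13.1 and 26.1 FPKM at 0 min in the control and knockdown arms. E2f1, a factor of entry into S phase, was lower by a log2 difference of -0.61 ± 0.050 (adjusted p = 1.6e-04), with 19.8 and 13.0 FPKM at 0 min. None of the 54 passed the slope difference test.

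For the proteins that act on Myc mRNA, on MYC and on its partners, counts are read against the same 26.1% and 22.3%. Of 18 genes for proteins known to bind Myc mRNA, 9 were called higher and 2 lower, among them Lin28a, an RNA-binding protein of pluripotent cells, at 0.43 ± 0.051 (SE; adjusted p = 5.8e-04) and Zfp36, which promotes decay of mRNAs with AU-rich elements, at -0.40 ± 0.048 (adjusted p = 6.6e-04). Zfp36 measured 9.02 and 6.47 FPKM at 0 min in the control and knockdown arms. Without 105 min 3 of the 18 were called higher and without 15 min 4, while the list's median difference was 0.13 and 0.12, beside 0.14 in the main fit. Calls also dropped among all 11452 tested genes when a time was left out. There 2986 were called higher in the main fit, 2636 without 0 min, 2261 without 15 min and 2345 without 105 min. Of 12 partners of MGA in its polycomb complex, 7 were higher and none lower, Pcgf6 by 0.52 ± 0.041 (adjusted p = 1.4e-04) and Rnf2 by 0.41 ± 0.052 (adjusted p = 7.5e-04), with 6 to 8 higher and none lower under the alternatives. Of 15 genes of MYC protein turnover, 5 were higher and none lower, 2 without 0 min and 3 without 15 or 105 min; Skp2, a ubiquitin ligase subunit, was higher by 0.44 ± 0.061 (adjusted p = 0.0011) and Usp7, a deubiquitinase, by 0.19 ± 0.042 (adjusted p = 0.0078). Of 16 MYC coactivators, 4 were higher and 1 lower, the acetyltransferases Kat2a at 0.81 ± 0.058 (adjusted p = 9.8e-05) and Kat5 at -0.34 ± 0.040 (adjusted p = 5.5e-04). Of 17 MXD and MNT corepressors, 3 were higher and 1 lower, with Rbbp7, a histone-binding subunit, at 0.41 ± 0.051 (adjusted p = 7.1e-04) and Brms1 at 0.39 ± 0.056 (adjusted p = 0.0013).

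Across the 8 conditions and 7605 genes with a mean of 5 or more FPKM, predicted genes, clone names, small RNAs and pseudogenes left out, the genes with the course most like Myc by Pearson's r of log2(FPKM + 1) were Spry2 at 0.997, Klf3 at 0.993, Tnrc6a at 0.992, Dync1li2 at 0.992 and Spry4 at 0.991. Among those most like Mycn were Wapal at 0.997, Zcchc11 at 0.996, Ifrd1 at 0.996 and Nrf1 at 0.996. Myc and Mycn themselves had an r of 0.946, and the median over genes was -0.42 with Myc and -0.43 with Mycn. The points share their libraries and 4 times. A high r can thus reflect no more than a like drop over time and a like order of the arms.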

How the data were processed

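RNA from P19 cells in 8 conditions (2 siRNA arms, 4 times) was aligned with TopHat2 and quantified with Cufflinks on mm10, per the submitters' processing notes, where no version is named. The authors deposited 1 FPKM value per gene and condition with a lower and an upper limit, per the file headers; how the 2 cultures per condition were combined, the level of the limits, the annotation and the strand setting are not given in the sources used here. FPKM is not a count and keeps no depth. Here log2(FPKM + 1) of the 11452 genes whose mean FPKM reached 1 was fitted with limma 3.58.1 in R 4.3.3 (eBayes without trend, two-sided, Benjamini-Hochberg over all tested genes, threshold 0.05); Python 3.11.15 did the rest. The expression difference used time as a factor plus arm (3 residual degrees of freedom), the slope difference the arm-by-hours term with time as a factor (2), and the slope in both arms hours plus arm (5). The fits were also run on simulated data with planted effects and independent noise per condition, which cannot check the unknown spread between cultures. Alternatives were pseudocounts of 0.1 and 5, no filter, a mean FPKM of 5 or more, 3 other scalings, trend and robust eBayes, hours as a number, slopes per arm and leaving out each time.

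The members and gene lists were chosen with earlier results of these data known. Named genes are all 9 members, Upf3a, the 5 genes most like Myc and Mycn (1 of these is not reported here), and the 2 members of each list with the largest moderated t; Mycl1 was named after its values were seen. Gene positions, transcripts and 3' UTRs came from GENCODE vM21 on GRCm38, taking for each gene the transcript with the longest coding sequence, and promoters from RefSeq GRCm38.p6; no promoter of Myc was used here, and protein sequences were not used here.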

Additional observations from a re-analysis of the deposited data

How the results depend on the processing

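The 3 fits were computed again under 12 to 14 alternatives for each member, and the mean log2 ratio of Upf3a with each of the 4 times left out; the shares left per interval, the summed ratios and the likeness values were not computed again. The calls of Mycn, Max, Mxi1 and Mlx for the expression difference and of Mycn, Myc, Mga, Mnt and Max for the slope over both arms kept their direction and passed under each alternative that could be run; a mean FPKM of 5 or more left Mxi1 out. The expression difference, with time as a factor, is already paired by time; cultures could not be paired, since each condition holds 1 value. With no read depth, counting error cannot be given, and the authors' limits are the only error per value. Myc near 1 FPKM at 105 and 225 min is where the pseudocount weighs most.

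For the slope difference, the number of all genes called was 1, and became 0 with hours as a number and with no filter, 4 with ribosomal protein scaling, 6 with trend and robust eBayes, and 2 to 22 when a time was left out; no member was called under any of these. Values not past the test changed sign. With a time left out, the expression difference of Mxd3 ran from -0.10 (without 225 min) to 0.19. The slope difference then ran from -0.0014 (without 0 min) to 0.035 for Mycn, -0.018 (without 225 min) to 0.046 for Max, -0.077 (without 225 min) to 0.061 for Mxi1, -0.25 (without 225 min) to 0.14 for Mxd3, -0.079 to 0.030 (without 0 min) for Mxd4 and -0.041 (without 225 min) to 0.037 for Mlx, which was -0.0090 without 0 min. Mycn gave -0.054 with a pseudocount of 5. Quantile normalization gave -0.0067 for Mycn and -0.018 for Max. Ribosomal protein scaling gave -0.072 for Mycn, -0.045 for Max, -0.013 for Mxi1 and -0.053 for Mlx. The slope of Mxi1 over both arms was -0.0027 without 0 min, ran from -0.039 (without 225 min) to 0.020 over the times left out, and was -0.0024 with median-of-ratios scaling and -0.0074 in the control arm alone. Ribosomal protein scaling turned the slopes of Mxi1 (-0.23), Mxd3 (-0.11), Mxd4 (-0.11) and Mlx (-0.17), so that 9 members were called lower and 0 higher; that scaling moves every slope by a like amount by construction.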

Other observations

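The gene lists were also counted by their slopes over both arms, relative to the bulk, with no test between lists. Of the 54 MYC target genes 32 were called higher and 19 lower, with Nme2, a nucleoside diphosphate kinase, at 0.32 and Ppan, a ribosome assembly factor, at -0.49 log2 units per hour. Of the 16 MYC coactivators 10 were higher and 4 lower, led by the paired ATPases Ruvbl2 at 0.19 and Ruvbl1 at 0.15. Of the 12 partners of MGA 7 were lower and 4 higher, with Rybp at -0.31 and Pcgf6 at -0.19. Of the 8 other network genes 5 were lower and 2 higher, with Mycl1 at -0.32 and Mxd1 at -0.26, slower than Myc and Mycn. Of the 17 MXD and MNT corepressors 8 were higher and 7 lower, and of the 18 genes for proteins that bind Myc mRNA 8 and 7. Of the 15 genes of MYC protein turnover 3 were higher and 6 lower. Over all tested genes 42.7% were called higher and 38.6% lower.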
